A study of Mus musculus with 47 samples.

Results

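Polycomb repressive complex 2 (PRC2) is the enzyme complex that methylates histone H3 at lysine 27, and the 10 genes described here encode its subunits in mouse liver: the catalytic subunits Ezh1 and Ezh2, the core subunits Eed, Suz12 and Rbbp4, and the accessory subunits Jarid2, Aebp2, Mtf2, Phf1 and Phf19. They were chosen by name, from the 22380 protein-coding genes of the annotation, because Ezh1 and Ezh2 are the genes deleted in this study and the other 8 encode their partners. The rule used no measured value, although earlier results of these data were known when the genes were chosen.

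H3K27me3, the trimethylated form, marks silenced chromatin, while H3K27ac marks active promoters and enhancers and H3K4me1 marks enhancers and the flanks of active promoters. The 3 marks were mapped by ChIP-seq in livers of mice 7 weeks old, in 4 groups. Control male and control female mice carried a floxed Ezh2 allele without Cre (Ezh2 f/f). E1/E2-KO male and female mice carried the same floxed allele together with an Ezh1 knockout (Ezh1-/-) and Cre driven by the albumin promoter. Ezh1 was therefore lost from the whole animal, while Ezh2 was lost from hepatocytes only. Endothelial cells, Kupffer cells and the other liver cells kept Ezh2, and their chromatin was part of every sample. The labels name 47 samples, 4 for each group and mark and 3 for H3K4me1 in E1/E2-KO females.

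The authors concatenated the reads of a group's livers before peaks were called, so each group had 1 list per mark, 12 in all. No value below has a replicate error, no difference was tested, and the lists hold positions without heights or depth. A peak that is missing from a list was not called there, which is not the same as absence of the mark. Fewer cells with a mark and less of the mark per cell cannot be told apart in such samples. Lists of the same mark differed in length. H3K27ac peaks numbered 29359 in control males, 55930 in E1/E2-KO males, 49702 in control females and 51253 in E1/E2-KO females, H3K4me1 peaks between 51417 and 69797, and H3K27me3 regions between 15603 and 19796. H3K27ac lay at the gene start of 4, 6, 6 and 7 of 8 hepatocyte marker genes in the same order of groups, with Tat without a peak in all 4 lists, at 1, 2, 1 and 3 of 4 endothelial markers, and at 0 of 4 Kupffer cell markers and 0 of 4 genes of muscle and nerve cells in every list.

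The deletion itself is the first thing to look for in the 2 catalytic genes. Ezh2 lies at chr6:47480273-47545340 (mm9, minus strand), spans 65.1 kb and has 20 exons in the transcript with the longest coding sequence. Positions in the following are distances from the 5′ end of the gene span, negative upstream and positive into the gene. Its SET domain, the part of the protein that transfers the methyl group, is encoded near the 3′ end, and exons 16 to 19 lie between 61.5 and 63.6 kb.

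Both control lists held H3K27ac and H3K4me1 in this stretch of Ezh2, and neither E1/E2-KO list held either mark there. In control males an H3K27ac peak of 397 bp ran from 62.1 to 62.5 kb and covered exon 17 in full. In control females one of 246 bp ran from 61.9 to 62.1 kb, in intron 16, and another of 255 bp began at 61.0 kb, in intron 15. The H3K4me1 peaks were wider, at 1440 bp in control males and 1174 bp in control females, and both covered exons 16 and 17. The nearest H3K27ac peak of the E1/E2-KO lists was 60.6 kb away in males and 60.7 kb away in females, at the gene start. The nearest H3K4me1 peak was 34.7 and 41.4 kb away. The stretch that the control male and control female H3K27ac peaks share is printed with 100 bases on either side, because it marks the place where the 2 genotypes part. It lies at chr6:47483095-47483375 (NCBIM37, the assembly of mm9), is read on the minus strand, and the shared 81 bases of intron 16 are in capitals.
Ezh2 intron 16 site: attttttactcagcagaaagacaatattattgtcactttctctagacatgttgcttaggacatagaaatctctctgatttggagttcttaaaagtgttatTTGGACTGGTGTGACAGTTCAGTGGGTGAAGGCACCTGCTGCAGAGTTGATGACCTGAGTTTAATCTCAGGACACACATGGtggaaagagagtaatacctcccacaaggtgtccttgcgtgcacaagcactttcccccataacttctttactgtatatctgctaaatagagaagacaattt

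Such a loss was uncommon in the series. Of H3K27ac sites found in both control lists, 1.89% (451 of 23831) were in neither E1/E2-KO list. For H3K4me1 the share was 8.57% (3482 of 40647). Both marks went missing together at 0.145% of the sites where both control lists held both marks, 21 of 14449, and Ezh2 intron 16 was 1 of these 21. The floxed allele loses exons of the SET domain where Cre acts, so removal of the DNA and loss of the marks from it cannot be told apart here. The H3K27ac peaks were narrow. With each list cut to its 29359 widest peaks, the control female peaks dropped out. The control male list has 29359 peaks in all, so that setting did not shorten it and its peak could not drop out. Among the widest 50% the peak remained in neither control list. The H3K4me1 peaks remained in both control lists under both settings.

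**Figure D1:**
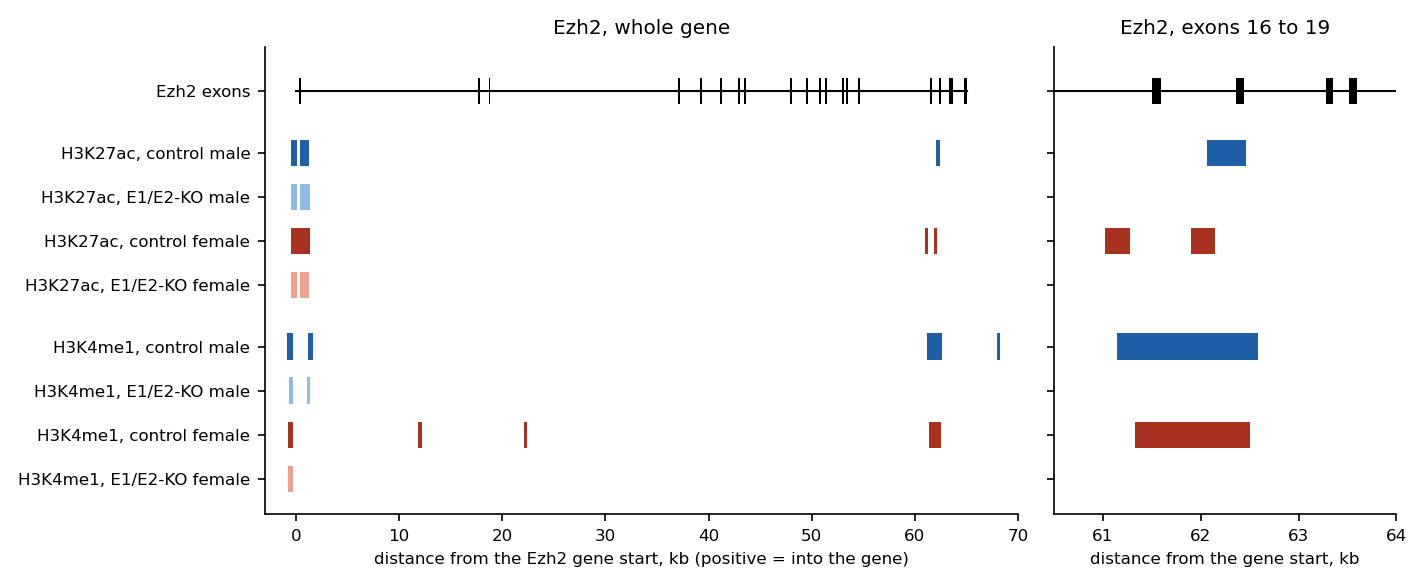
H3K27ac and H3K4me1 peaks along Ezh2 in the 4 lists of each mark, plotted by distance from the gene start in kb, with exons as black bars and, at right, exons 16 to 19 enlarged. Peaks at the gene start appear in all 8 lists, while those between 61.0 and 62.6 kb appear in the 4 control lists and in none of the 4 E1/E2-KO lists.

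The start of Ezh2 kept its marks. H3K27ac peaks within 1 kb of the start had a total width of 1469 bp in control males, 1606 bp in E1/E2-KO males, 1784 bp in control females and 1457 bp in E1/E2-KO females. H3K4me1 was also called there in all 4 lists, from -0.8 to -0.3 kb, at 549, 363, 526 and 397 bp in the same order. No H3K27me3 region entered the gene in any list, so its coverage was 0% in all 4. A region just upstream was found in both control lists, of 9.6 kb in males and 13.2 kb in females, ending at -1.9 and -0.7 kb. Neither E1/E2-KO list had a region within 10 kb of the gene. That pattern, H3K27me3 within 10 kb in both controls and in neither E1/E2-KO list, held for 1 of the 10 genes and for 2.69% of all genes.

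Ezh1, the other catalytic subunit and the form that prevails in tissues whose cells divide little, lies at chr11:101052429-101087777 (minus strand, 35.3 kb, 21 exons). Its H3K27me3 lay at the front of the gene in the control lists and over the back of it in the E1/E2-KO lists. In control males a region of 27.2 kb ran from -26.6 to 0.6 kb, across the gene start and into intron 1. In control females one of 25.6 kb ran from -26.2 to -0.6 kb and stopped short of it. These regions covered 78.8% and 18.8% of the 1 kb on either side of the start, and the coverage there was 0% in both E1/E2-KO lists. H3K27me3 near the start in both controls and in neither E1/E2-KO list was found for Ezh1 alone among the 10, and for 2.52% of all genes.

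Inside Ezh1 the order was the reverse. Coverage of the gene span was 1.63% in control males, 53.1% in E1/E2-KO males, 0% in control females and 53.1% in E1/E2-KO females, so both E1/E2-KO lists lay far above both control lists. In both sexes the E1/E2-KO region began at 16.6 kb, in intron 7, and ran through the 3′ end of the gene. It was 47.6 kb wide in males, where it ended at 64.2 kb, and 21.2 kb wide in females, where it ended at 37.8 kb. The control lists had regions past the 3′ end of the gene, from 43.4 to 53.0 kb in males and from 40.2 to 52.2 kb in females, and the E1/E2-KO male region took in both of these stretches. Ezh1 was the 1 gene of 10 whose coverage rose by 25 percentage points or more in both sexes, against 3.32% of all genes. Taken by sex, 1 member rose by that much in males, against 9.85% of genes, and 1 in females, against 6.29%. The female region is below the median width of its list (30400 bp), and among the widest 50% of the regions the E1/E2-KO female coverage was 0%. H3K27me3 regions also lay over more hepatocyte marker genes in the E1/E2-KO lists: at least 50% of the span was covered in 4 of 8 hepatocyte markers in each, and in 0 of 8 in each control list. For endothelial, Kupffer, stellate, cholangiocyte and lymphocyte markers and the muscle and nerve cell genes, no count was higher in an E1/E2-KO list than in the control list of the same sex, and endothelial markers went from 2 to 1 of 4 in both sexes. Ezh1 is itself a disrupted allele in both E1/E2-KO groups. The paper reports much less Ezh1 mRNA in these livers, with reads missing from several exons, those of the SET domain among them. The parts of the disrupted allele and of the hepatocyte marker difference in the Ezh1 result were not tested.

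The genes beside Ezh1 did not follow it in a single direction. Cntnap1, downstream, was covered by 47.5% in control males and 100% in E1/E2-KO males, but by 59.4% in control females and 10.1% in E1/E2-KO females. Tubg2, farther downstream, went from 100% to 0% in both sexes. On the other side Vps25 went from 35.3% to 62.7% in males and from 21.6% to 62.7% in females, and Ramp2, which overlaps it, from 67.5% to 27.1% and from 58.6% to 27.1%. Borders of H3K27me3 regions therefore differed between control and E1/E2-KO lists on both sides of Ezh1 as well as inside it.

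**Figure D2:**
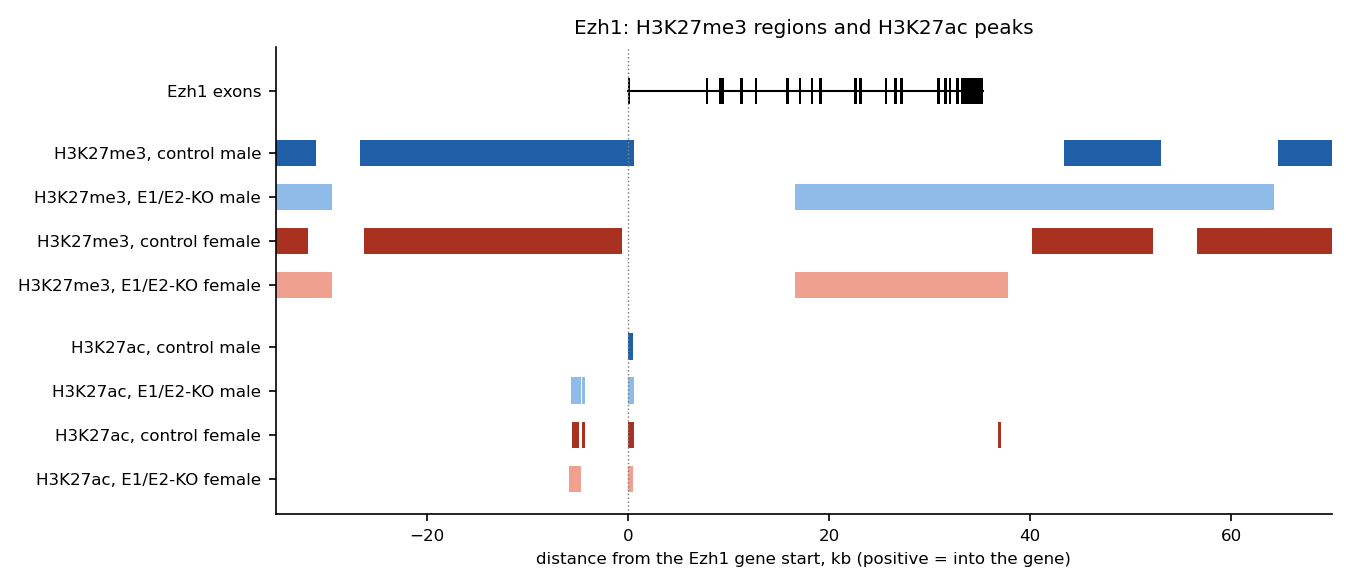
H3K27me3 regions and H3K27ac peaks around Ezh1 in the 4 lists of each mark, plotted by distance from the gene start in kb, with exons as black bars. Control regions end at 0.6 and -0.6 kb, and E1/E2-KO regions begin at 16.6 kb in both sexes, while an H3K27ac peak stays at the gene start in every list.

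Active marks were called at Ezh1 in every list. H3K27ac at the gene start measured 482 bp in control males, 585 bp in E1/E2-KO males, 593 bp in control females and 485 bp in E1/E2-KO females. H3K4me1 at the start was called in control males alone. About 5.0 kb upstream, within the control H3K27me3 regions, H3K4me1 was called in both E1/E2-KO lists (694 bp in males, 279 bp in females) and in neither control list. Of the H3K4me1 sites that lay in H3K27me3 regions of both control lists and of neither E1/E2-KO list, 4.64% (140 of 3020) behaved in this way. The 1 such site near any of the 10 genes was this one. H3K27ac was called at the same place in E1/E2-KO males, control females and E1/E2-KO females, at 1010, 649 and 1159 bp, and not in control males, the shortest of the H3K27ac lists. The stretch shared by the H3K4me1 peaks of E1/E2-KO male and female liver is shown because it is the only stretch within 10 kb upstream of Ezh1 with H3K4me1 in the knockouts. It is printed in capitals with 40 bases on either side, from chr11:101092496-101092737 (NCBIM37, minus strand).
Ezh1 upstream site: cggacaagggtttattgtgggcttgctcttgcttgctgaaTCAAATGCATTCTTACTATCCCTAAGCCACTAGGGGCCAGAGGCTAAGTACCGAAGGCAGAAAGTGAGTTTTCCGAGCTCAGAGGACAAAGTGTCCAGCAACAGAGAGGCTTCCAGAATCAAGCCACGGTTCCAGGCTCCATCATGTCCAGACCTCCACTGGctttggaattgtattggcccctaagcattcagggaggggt

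The partners of the catalytic subunits kept H3K27ac at their gene starts. A peak within 1 kb of the start was found for 9 of the 10 members in control males and for 10 in each other list. The shares of all genes were 44.8% in control males, 51.8% in E1/E2-KO males, 50.8% in control females and 51.4% in E1/E2-KO females. All 4 lists held such a peak for 9 members, and for 44.2% of all genes. The single change was at Aebp2, gained in E1/E2-KO males (1 of 10 members, 7.27% of genes). No member lost its peak in males (0.308% of genes), gained one in females (2.46%) or lost one in females (1.84%). The Aebp2 call rested on the choice of start. In control males its peak began just beyond 1 kb, and when the start of any annotated transcript was used all 10 members had H3K27ac in all 4 lists.

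**Figure D3:**
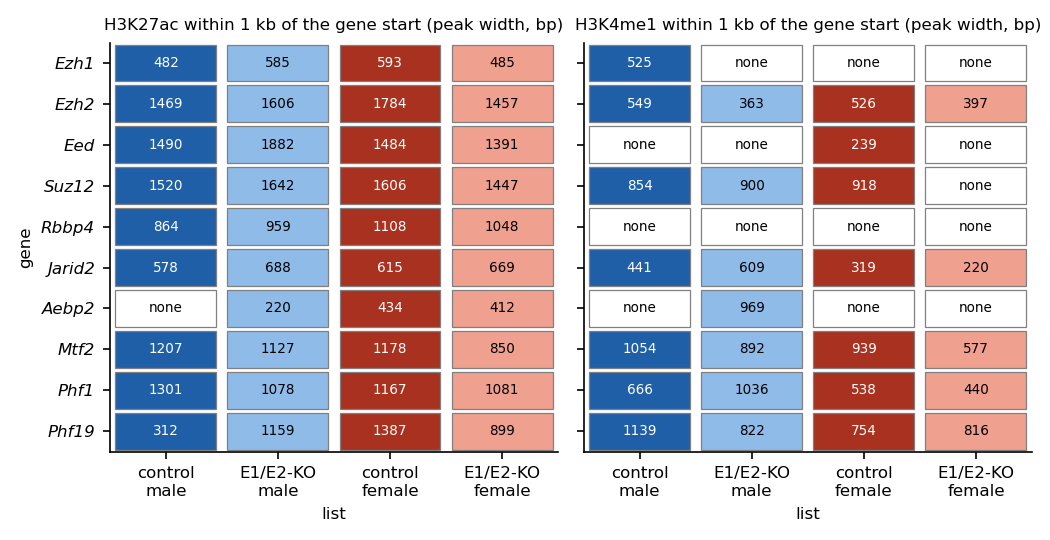
H3K27ac and H3K4me1 peaks within 1 kb of the gene start for each of the 10 PRC2 genes in the 4 lists of each mark, with the total width of these peaks in bp. H3K27ac is present in 39 of 40 squares, and H3K4me1 in 26 of 40.

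Some of these promoters share a short sequence that the choice of genes did not use. E2F proteins, which drive genes needed for DNA replication, bind sites such as TTCCCGC and TTGGCGC. In the 250 bases upstream of the gene start, on either strand, one or both letter strings were present in 4 of 10 members (Ezh2, Suz12, Rbbp4 and Phf19) and in 6.65% of 22375 promoters of the same length. TTCCCGC alone was in 3 members and 4.61% of promoters, and TTGGCGC in 2 members and 2.29%. GGGCGG, the GC box, was in 6 members and 39.6% of promoters, and CCAAT in 4 members and 35%. CCGGAAG, an ETS site, was in none of the 10 and in 8.22% of promoters. The members' promoters held a median of 22 CpG dinucleotides, from 1 for Aebp2 to 37 for Suz12, against 8 for all promoters. For Aebp2 and Jarid2 these bases precede the gene span, while exon 1 of the transcript with the longest coding sequence lies farther in. H3K27ac sites over that exon, from 1.1 to 2.6 kb and from 1.3 to 1.8 kb, were in all 4 lists. Both E2F strings contain CG, and the part of CpG content in their share was not tested. Whether the factors bind was not measured. An H3K27ac peak lay within 1 kb of the start in all 4 lists for 9 of the 10 members, these 4 among them. The 4 promoters are printed because they hold an E2F string. They are given from NCBIM37 in gene orientation, with the E2F strings of either strand in capitals. They lie at chr6:47545341-47545590 (minus strand), chr11:79806358-79806607 (plus), chr4:129012615-129012864 (minus) and chr2:34769547-34769796 (minus).
Ezh2: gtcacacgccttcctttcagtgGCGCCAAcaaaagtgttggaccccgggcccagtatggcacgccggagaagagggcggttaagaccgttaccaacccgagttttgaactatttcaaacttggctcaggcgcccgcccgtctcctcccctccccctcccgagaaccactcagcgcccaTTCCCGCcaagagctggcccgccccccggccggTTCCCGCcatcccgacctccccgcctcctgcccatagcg
Suz12: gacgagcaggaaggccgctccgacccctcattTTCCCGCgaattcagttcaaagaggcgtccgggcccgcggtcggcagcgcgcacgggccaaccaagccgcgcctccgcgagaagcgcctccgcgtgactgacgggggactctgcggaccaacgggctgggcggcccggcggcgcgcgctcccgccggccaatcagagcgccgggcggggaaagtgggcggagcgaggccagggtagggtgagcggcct
Rbbp4: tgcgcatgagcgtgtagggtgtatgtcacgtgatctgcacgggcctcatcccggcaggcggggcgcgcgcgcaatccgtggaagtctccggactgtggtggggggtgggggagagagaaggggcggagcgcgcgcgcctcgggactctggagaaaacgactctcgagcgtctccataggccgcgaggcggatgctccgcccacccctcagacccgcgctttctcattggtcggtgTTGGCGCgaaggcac
Phf19: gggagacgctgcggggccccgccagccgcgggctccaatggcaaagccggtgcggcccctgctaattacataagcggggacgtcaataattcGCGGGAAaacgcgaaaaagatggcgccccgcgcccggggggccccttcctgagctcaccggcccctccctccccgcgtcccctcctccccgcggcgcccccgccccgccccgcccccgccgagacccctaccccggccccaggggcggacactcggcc

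Among the core subunits, Eed, which binds trimethylated H3K27 and holds the complex on methylated chromatin, lies at chr7:97103166-97129493 (minus strand, 26.3 kb). It had 1 H3K27ac peak in each list, at its start, of 1490 bp in control males, 1882 bp in E1/E2-KO males, 1484 bp in control females and 1391 bp in E1/E2-KO females. No H3K27me3 region came within 10 kb of it in any list. Suz12, the scaffold on which the complex is built, lies at chr11:79806608-79847625 (plus strand, 41 kb). Its start carried H3K27ac at 1520, 1642, 1606 and 1447 bp in the same order. An H3K27me3 region of 26.8 to 32.4 kb lay upstream of Suz12 in every list and never entered the gene. It ended at -0.2 kb in control males, -3.0 kb in E1/E2-KO males, -1.0 kb in control females and -2.6 kb in E1/E2-KO females, nearer to the start in both controls than in either knockout. Rbbp4, a histone-binding subunit that PRC2 shares with other complexes, lies at chr4:128984344-129012614 (minus strand, 28.3 kb). It had the largest number of H3K27ac peaks of the 10 genes, with 8, 9, 9 and 8 peaks within 10 kb. Because Zbtb8os starts within 1 kb of it, its upstream peak may belong to either gene. H3K27ac peaks at intron 11 of Rbbp4 and at its 3′ end were present in all 4 lists. H3K4me1 sites from -2.5 to -1.8 kb and from 27.5 to 28.2 kb were in both control lists and in neither E1/E2-KO list. The latter site joins a control male peak from 27.5 to 27.9 kb and a control female peak from 27.8 to 28.2 kb. Over all 10 genes, 3 of 25 H3K4me1 sites in both control lists (12%) were in neither E1/E2-KO list, against 8.57% in the series. The 3 include the Ezh2 site at exons 16 and 17, in the SET domain part of the floxed allele.

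H3K4me1 at the gene start varied more. It was found for 7, 7, 7 and 5 of 10 members, in control males, E1/E2-KO males, control females and E1/E2-KO females, against 47%, 45.7%, 39.8% and 36.2% of genes. In males it was gained at Aebp2 (6.41% of genes gained it) and lost at Ezh1 (7.75% lost it). In females it was gained at 0 members (5.68%) and lost at 2, Eed and Suz12 (9.29%). It was lost in both sexes at 0 of the 10, against 2.08% of all genes. The Suz12 peak still lay beside the window, as a site between 0.5 and 1.4 kb was present in all 4 H3K4me1 lists. The Eed peak, of 239 bp, was called in control females and in neither male list, and an Eed site between 1.5 and 2.4 kb was in all 4 lists. The E1/E2-KO female list, with 51417 peaks, was the shortest H3K4me1 list and the only one from 3 samples.

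Jarid2 and Aebp2 encode the accessory subunits of one form of the complex, PRC2.2, and both bind ubiquitinated histone H2A. Jarid2 is the longest of the 10 genes, at 192 kb (chr13:44824843-45017012, plus strand), and had the most H3K4me1, with 11 peaks in control males, 13 in E1/E2-KO males, 10 in control females and 7 in E1/E2-KO females. Its H3K27ac hardly moved, at 4, 4, 5 and 5 peaks, and an H3K27ac site in intron 2, from 110.4 to 111.5 kb, was in all 4 lists. An H3K27me3 region came over the start of Jarid2 in E1/E2-KO males only. It was 49.2 kb wide and ended at 0.8 kb, and covered 87.9% of the 1 kb on either side. In the other 3 lists the nearest upstream region ended at -17.2, -17.2 and -13.6 kb.

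Aebp2 (chr6:140570970-140626993, plus strand, 56 kb) had the largest change in H3K27ac peak number among the 10, and the sexes moved in opposite directions. Peaks within 10 kb numbered 1 in control males and 6 in E1/E2-KO males, but 7 in control females and 5 in E1/E2-KO females. The control male list is thus the one that stood apart, and it is also the shortest. H3K27me3 covered the 3′ part of Aebp2 in every list, by 37.5% in control males, 31.8% in E1/E2-KO males, 8.91% in control females and 31% in E1/E2-KO females. Here the control female list was the low one.

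Mtf2, Phf1 and Phf19 are the 3 Polycomb-like proteins of the other form, PRC2.1, and help bring the complex to CpG islands. Mtf2 (chr5:108494693-108538023, plus strand, 43.3 kb) kept H3K27ac at its start, at 1207, 1127, 1178 and 850 bp. Like Jarid2, it had H3K27me3 at the start in E1/E2-KO males only, from a region of 58.8 kb that ended at 0.1 kb and covered 55.4% of the 1 kb on either side. H3K27me3 within 1 kb of the start in that list alone was found for 2 of the 10 members and for 4.88% of all genes. Phf1 (chr17:27070072-27074835, plus strand, 4.76 kb) had 4 H3K27ac peaks in each list, and all 4 H3K27ac sites were shared by all 4 lists. An H3K27me3 region lay downstream of Phf1 in every list and reached the gene in E1/E2-KO males alone, by 0.735% of its length.

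Phf19 (chr2:34749277-34769546, minus strand, 20.3 kb) was the member with the most H3K27me3 in control liver after Aebp2 in males, and the one with the most in females. A region over its start covered 35.3% of the gene in control males, 44.7% in E1/E2-KO males with another region at the 3′ end, and 37.2% in control females. In E1/E2-KO females the coverage was 0%, and the region near the start ended at -4.5 kb. The fall in females was the only one of 25 points or more among the 10, against 7.58% of genes, and in males 0 of 10 fell by that much, against 6.07%. The control female region is narrower than the median of its list (23600 bp), and among the widest 50% of the regions 0 members changed in females. H3K27ac was called at the Phf19 start in all 4 lists all the same, at 312, 1159, 1387 and 899 bp, and another H3K27ac site, over exons 7 to 9, was also in all 4. In 3 lists both H3K27ac and H3K27me3 were therefore called at the Phf19 start, in tissue that holds several cell types.

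**Figure D4:**
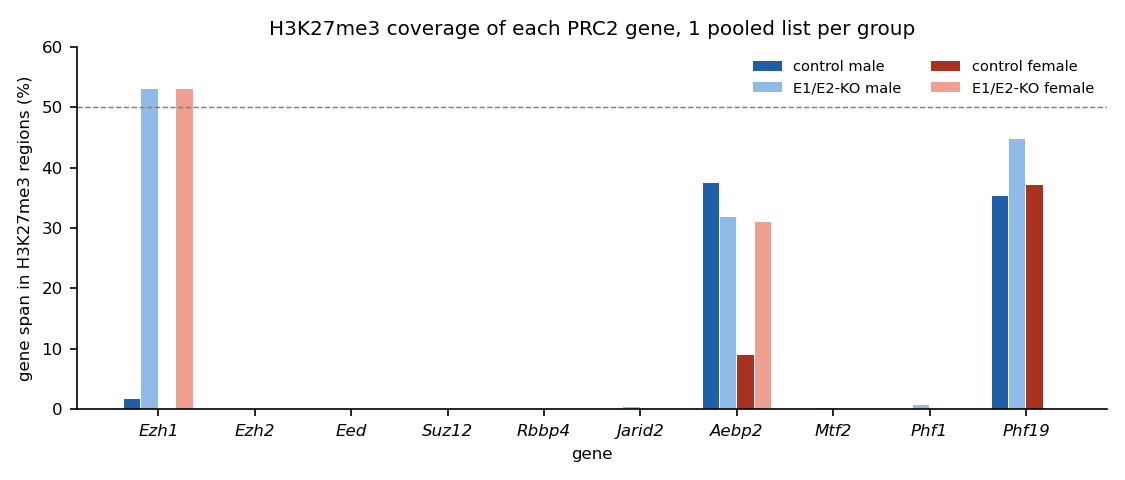
Percent of each gene span inside H3K27me3 regions, 1 bar per group, with a dashed line at 50%. Ezh1 is at 53.1% in both E1/E2-KO lists and at 1.63% and 0% in the controls, Aebp2 and Phf19 lie between 0% and 44.7%, and the other 7 genes are below 1%.

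Few of the PRC2 genes were covered by H3K27me3 over most of their length. At least 50% of the span was covered in 0, 1, 0 and 1 of 10 members in control males, E1/E2-KO males, control females and E1/E2-KO females, against 29.9%, 32.5%, 29.7% and 28.7% of all genes. Within 1 kb of the start, regions touched Ezh1, Suz12 and Phf19 in control males, Jarid2, Mtf2 and Phf19 in E1/E2-KO males, Ezh1, Ezh2 and Phf19 in control females and 0 members in E1/E2-KO females, against 37.7%, 41.8%, 38.5% and 36.3% of genes. Any coverage of the span was found for 3, 6, 2 and 2 members, against 42.4%, 47%, 42.6% and 40.7% of genes.

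Summed over the 10 genes, H3K27ac peaks within 10 kb numbered 28 in control males, 39 in E1/E2-KO males, 41 in control females and 34 in E1/E2-KO females. The ratio of E1/E2-KO to control was 1.39 in males, where the ratio of the lists' own lengths was 1.91, and 0.829 in females, where that of the lists was 1.03. When equal numbers of the widest peaks were taken from each list the male ratio was 1. For H3K4me1 the sums were 48, 40, 37 and 29, with ratios of 0.833 in males and 0.784 in females, against 0.973 and 0.938 for the lists. Of the members' H3K27ac sites, 23 of 44 (52.3%) were in all 4 lists, and of all H3K27ac sites 30.1%. The members' sites lie within 10 kb of a gene while those of the series include distant ones, so the shares are of unlike sets, and the difference was not tested. Of these 44 sites, 12 (27.3%) were gained and 1 (2.27%) was lost in males, against 39% and 3.5% of all H3K27ac sites of the series. In females 0 were gained and 11 (25%) were lost, against 16.6% and 18.1%. The 1 site lost in males was the one in Ezh2. Of the members' H3K4me1 sites, 18 of 71 (25.4%) were in all 4 lists, close to the 28.4% in the series. Sites in 1 list only made up 35 of these 71 (49.3%), against 37.4% in the series. In males 13 of the 71 (18.3%) were gained and 19 (26.8%) were lost, against 19.5% and 21.5%. In females 9 (12.7%) were gained and 17 (23.9%) were lost, against 15.1% and 18.6%. These differences were not tested either.

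**Figure D5:**
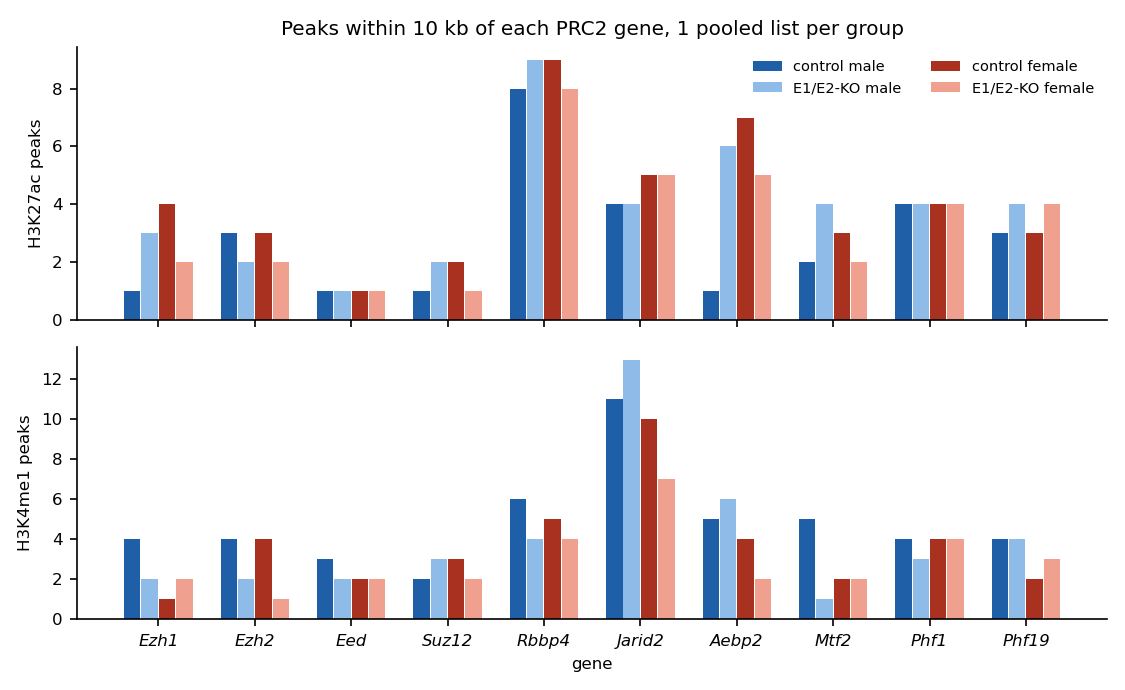
Number of H3K27ac peaks (top) and H3K4me1 peaks (bottom) within 10 kb of each PRC2 gene, 1 bar per group. Rbbp4 has 8 or 9 H3K27ac peaks in each list, Aebp2 has 1 in control males and 5 to 7 in the other lists, and Jarid2 has the most H3K4me1 peaks, 7 to 13.

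The other genes of the pathway, listed by function, were PRC1 subunits, which read H3K27me3 and ubiquitinate H2A, further PRC2-associated genes, H3K27 demethylases and the acetyl- and methyltransferases of H3K27 and H3K4. Of 30 found in the annotation, 26 had H3K27ac at the gene start in each list, against 44.8% to 51.8% of all genes, and none gained or lost it in either sex. H3K4me1 at the start was lost at 6 of the 30 in males and 7 in females, against 7.75% and 9.29% of all genes, and gained at 2 in each, against 6.41% and 5.68%. The mark was at 21 of the 30 starts in control males and 15 in control females, against 47% and 39.8% of all genes. A larger share of the 30 therefore had the mark to lose. It was lost in both sexes at 2 of the 30, the PRC1 subunit genes Pcgf3 and Phc2, against 2.08% of all genes. H3K27me3 coverage fell by 25 points or more at 3 of the 30 in males and 2 in females, against 6.07% and 7.58% of all genes, and rose by as much at 2 and 1, against 9.85% and 6.29%. These coverage counts lie near the shares of all genes. A fall in both sexes was found at 1 of the 30, Bmi1, against 2.78% of all genes and 0 of the 10 members. That count, too, lies near the share of all genes. Bmi1, a PRC1 subunit known as a silencer of the Cdkn2a locus, went from 94.2% to 2.66% in males and from 94.2% to 56.8% in females. It had H3K27ac at the gene start in all 4 lists.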

How the data were processed

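The authors made 50 nt paired-end ChIP-seq libraries for H3K27me3, H3K27ac and H3K4me1 from individual livers and concatenated the reads of a group before peak calling. Per the labels and the study's methods, reads were mapped to mm9 with Bowtie2 2.3.2, H3K27me3 regions were called with SICER 1.1 (400 bp windows, a gap of 2400 bp), and the peaks of the other marks with MACS2 2.1.1. SICER joins windows across gaps, so region borders are coarse, and a longer list can come from deeper reads. The deposited lists give chromosome, start, end and a name, without a score, so the depth is unknown. No peak lay beyond a chromosome end of NCBIM37 (0 of all peaks), whose sequence and GENCODE M1 genes were used. The labels give 3 samples for H3K4me1 in E1/E2-KO females where the methods give 4 for each group, and 1 sample title lacks the last digit of H3K4me1, which its antibody label names.

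Genes were located by symbol. A peak counted as near a gene when it overlapped the span and 10 kb on either side by 1 bp or more, and as at the start when it overlapped 1 kb on either side of the 5′ end. H3K27me3 coverage is the percent of the span inside regions, 50% counting as covered and 25 percentage points as a change. Sites are overlapping peaks of the 4 lists of a mark, merged. The text names all 10 members and, of the other pathway genes, those whose start peak or coverage changed the same way in both sexes, except an item not reported here; neighbours of Ezh1 were chosen for their position after its values were seen. The members and lists were chosen with earlier results of these data known. With 1 list per group, no test was run. Counting was tested on simulated lists. Python 3.11.15, NumPy 2.4.6, matplotlib 3.10.9 and samtools 1.23.1 were used.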

Additional observations from a re-analysis of the deposited data

Results flagged for a closer look

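These values moved in opposite directions from control to E1/E2-KO liver in males and females. With 1 list per group, the difference between the sexes was not tested in any of them. H3K27ac peaks within 10 kb of Ezh1 differed by 2 in males (1 to 3) and by -2 in females (4 to 2). Those of Aebp2 differed by 5 in males (1 to 6) and by -2 in females (7 to 5). Summed over the 10 PRC2 genes, H3K27ac peaks differed by 11 in males (28 to 39) and by -7 in females (41 to 34), and the control male H3K27ac list, with 29359 peaks, was the shortest of the 4. H3K4me1 peaks within 10 kb of Jarid2 differed by 2 in males (11 to 13) and by -3 in females (10 to 7). H3K27me3 coverage of Aebp2 differed by -5.71 percentage points in males and by 22.1 in females, and that of Phf19 by 9.49 points in males and by -37.2 in females.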

How the results depend on the processing

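Of 98 values of the main results under other settings, 78 stayed within 1.5 times the value reported and 20 did not. With the start base alone in place of 1 kb on either side, members with H3K27ac at the start numbered 5 in control males, 6 in E1/E2-KO males, 6 in control females and 5 in E1/E2-KO females, and members with H3K4me1 numbered 1 in each. Members covered by H3K27me3 numbered 2, 3, 1 and 2 in the same order at 25% in place of 50%, 2, 3, 1 and 0 when the 1 kb on either side of the start replaced the span (which turns the female direction, 0 to 1 over the span and 1 to 0 at the start), 2 in E1/E2-KO males with 3 kb added on either side, and 0 in E1/E2-KO females among the widest 50% of the regions. Members whose coverage changed numbered 2 in males with 3 kb added, and 0 in females among the widest 50% of the regions. The ratios of peaks within 10 kb stayed between 1 and 1.56 for H3K27ac in males, 0.8 and 1 in females, and for H3K4me1 between 0.75 and 1 in males and 0.741 and 0.938 in females. The settings tried for the Ezh2 site and for Ezh1 coverage were chosen after seeing the data. No paired analysis was possible because each group had 1 pooled list per mark, and for the same reason no liver could be left out.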
